A study of Mus musculus with 6 samples.

Results

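The genes described are Myc, its partner Max and 42 genes of ribosome biogenesis, measured by RNA sequencing in haematopoietic stem cells (HSCs) of mouse bone marrow. They were chosen by symbol from a list of 44, and all 44 were found among the 47937 genes of the deposited table. Of these, 43 carried the listed symbol, and Utp4 was found by its gene ID under the older name Cirh1a. All 44 passed the filter on low values, a mean normalized count of at least 10, and so were among the 11805 genes tested. HSCs were sorted from 8-week-old male wild-type C57BL/6 mice as lineage-depleted cells carrying Kit, Sca-1 and Slam1 but neither CD34, CD48 nor Flt3 on the surface. The cells that also carried the receptor CD93 (CD93pos) were set against those that did not (CD93neg), with 3 libraries in each group. Both groups came from the same strain and age, the labels give no treatment, and cells were flushed from pooled femora and tibiae. The labels call the libraries biological replicates but do not say which mice gave which library, so p-values measure the spread between these libraries.

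Ribosomes are built in the nucleolus. RNA polymerase I transcribes the long precursor of the ribosomal RNAs, small nucleolar ribonucleoproteins (snoRNPs) guide its chemical modification, and large sets of assembly factors cut and fold it into the small and the large subunit. Myc, a transcription factor that binds DNA as a dimer with Max, is known for raising the transcription of many genes of this pathway. Blood stem cells are known for making little protein while at rest.

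The DNA element that the Myc and Max dimer is best known to bind is the E-box CACGTG, which reads the same on both strands. Promoter windows of RefSeq (GRCm38.p6), from 250 bases before to 50 bases after a gene's start, were given for 38 of the 44 genes and searched for these letters. They were found for 10 genes, 26.3%, against 8.09% of the 27025 genes of the whole promoter table. That table includes genes outside the 11805 tested, and the share over tested genes alone was not taken. The 10 genes were Max, Wdr43, Rrn3, Mybbp1a, Nop2, Imp4, Utp4, Pes1, Tsr1 and Utp20. A match describes these letters in this window and is not evidence of binding. Myc, Fbl, Npm1, Bop1, Rrs1 and Rrp12 had no window in that table. The windows of the 3 genes with the element whose counts are given below for every library are shown, with the E-box in capitals, to let its place relative to the start be seen. In Max it begins 3 bases before the start and in Wdr43 18 bases after it. In Rrn3 it occurs 2 times, beginning 215 and 48 bases before the start. Starts here are those of RefSeq. They differ from the gene bounds given below for Max and Wdr43, which came from GENCODE M21.
Max, chr12:76962199-76962498, minus strand: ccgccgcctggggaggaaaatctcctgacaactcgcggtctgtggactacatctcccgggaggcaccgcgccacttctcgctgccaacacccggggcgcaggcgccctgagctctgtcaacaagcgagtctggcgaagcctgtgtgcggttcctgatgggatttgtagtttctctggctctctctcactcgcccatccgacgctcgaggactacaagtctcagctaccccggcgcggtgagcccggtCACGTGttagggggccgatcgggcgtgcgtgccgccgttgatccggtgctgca
Wdr43, chr17:71615965-71616264, plus strand: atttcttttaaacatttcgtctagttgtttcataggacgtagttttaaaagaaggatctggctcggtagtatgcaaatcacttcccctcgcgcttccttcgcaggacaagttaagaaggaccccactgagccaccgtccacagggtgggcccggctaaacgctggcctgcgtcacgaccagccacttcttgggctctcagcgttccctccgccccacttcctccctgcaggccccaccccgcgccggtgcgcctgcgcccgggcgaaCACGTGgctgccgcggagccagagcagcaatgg
Rrn3, chr16:13780449-13780748, plus strand: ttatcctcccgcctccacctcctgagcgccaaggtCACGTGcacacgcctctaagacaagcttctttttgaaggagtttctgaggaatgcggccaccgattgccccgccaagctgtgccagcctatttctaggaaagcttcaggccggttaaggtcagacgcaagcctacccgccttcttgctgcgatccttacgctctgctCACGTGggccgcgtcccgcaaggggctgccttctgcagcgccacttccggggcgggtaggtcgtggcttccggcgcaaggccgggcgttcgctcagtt

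Several of the genes also carry a product of the same pathway within their introns. In GENCODE M21, 6 of the 44 genes, 13.6%, held a small nucleolar RNA on their own strand outside all their annotated exons. The share was 1.42% of the 11772 tested genes with a position. By this rule Nop58 and Wdr43 held 3 each, Tsr1 held 2, and Dkc1, Ncl and Nop56 held 1 each. Small nucleolar RNAs that overlap an exon of any annotated transcript were left out, so these counts can be too low. The 44 genes lie on 19 chromosomes.

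Reads assigned to genes numbered between 5794528 and 9509304 in the CD93pos libraries and between 2832653 and 4614396 in the CD93neg libraries. CD93neg replicate 1 stood apart, with no read for 71.0% of the tested genes, against 26.4% and 16.0% in CD93neg replicates 2 and 3 and at most 13.5% in a CD93pos library. Of 10 HSC markers, all were read in the other 5 libraries, and 4 in CD93neg replicate 1. Cd93 itself had 906, 1001 and 550 reads in the CD93pos libraries, against 0, 419 and 38 in the CD93neg libraries. Its normalized counts overlapped, with 399 in CD93neg replicate 2 and 338 in CD93pos replicate 3. Reads of 10 neutrophil markers amounted to 275, 2.93 and 6.43 CPM in the CD93pos libraries, against 0, 12457 and 8682 CPM in the CD93neg libraries, where CPM is reads per 1000000 assigned reads, so that CD93neg replicates 2 and 3 held nearly all of them. Reads of 8 B lineage markers amounted to 63.1, 70.9 and 75.6 CPM in the CD93pos libraries, against 0.353, 6619 and 14739 CPM in the CD93neg libraries. Most B lineage reads in CD93neg replicates 2 and 3 were of a single gene, and not every gene of the list was higher there. In CD93neg replicate 1 no neutrophil marker was read and of the B lineage markers only Ebf1, with 1 read. Groups are given as labelled, and limma's log2 fold changes of single genes are given with and without CD93neg replicate 1.

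The 44 genes together took a larger part of the reads in every CD93pos library than in any CD93neg library. Their reads amounted to 10954, 10075 and 12004 CPM in the CD93pos libraries, against 6422, 7134 and 7155 CPM in the CD93neg libraries. The lowest CD93pos library lay above the highest CD93neg library, and the 3 CD93neg libraries lay close together although 1 of them was sparse. The means were 11011 ± 966 CPM in CD93pos and 6904 ± 418 CPM in CD93neg (SD, n = 3 per group), a ratio of 1.60. The ratio was 1.54 without CD93neg replicate 1 and 1.71 with that library as the only CD93neg sample. As a share of all assigned reads this was 1.10% (95% Wilson interval 1.09 to 1.10%), 1.01% (0.999 to 1.02%) and 1.20% (1.19 to 1.21%) in CD93pos, against 0.642% (0.633 to 0.652%), 0.713% (0.706 to 0.721%) and 0.715% (0.706 to 0.725%) in CD93neg. These intervals cover counting error only, and reads of amplified libraries are not independent molecules. No test was made of this sum, because the list was drawn up with earlier results known.

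Reads of other marker lists moved between the same libraries. Those of 18 G2 and mitosis genes amounted to 3094, 2931 and 3220 CPM in the CD93pos libraries, against 2262, 273 and 406 CPM in the CD93neg libraries, a ratio of means of 3.14, or 9.08 without CD93neg replicate 1. All 18 were read in each CD93pos library, and 6, 6 and 7 in CD93neg replicates 1, 2 and 3. Reads of 10 HSC markers were 2175, 2082 and 1594 CPM in the CD93pos libraries, against 3187, 3891 and 2352 CPM in the CD93neg libraries. By this sum every CD93pos library lay below every CD93neg library, but most reads in CD93neg replicate 1 were of a single gene. With all libraries 7 of the 10 had a positive limma log2 fold change, and 0 did without CD93neg replicate 1. Reads of 7 mast cell and basophil genes amounted to 635, 1405 and 1006 CPM in the CD93pos libraries. In the CD93neg libraries they amounted to 0.353, 354 and 245 CPM. Of these genes Prss34, Ms4a2, Fcer1a, Hdc and Mcpt8 were at 0 in every CD93neg library. A single other gene gave most reads of the list in CD93pos replicate 1 and CD93neg replicates 2 and 3. Its groups overlapped in CPM. Reads of 8 erythroid genes were 371, 314 and 630.4 CPM in the CD93pos libraries, against 228, 15.4 and 82.9 CPM in the CD93neg libraries. Klf1 was at 0 in every CD93neg library, but not every gene of the list was higher in CD93pos. In CD93neg replicate 1 the erythroid reads were all of 1 gene. The summed reads of the mitosis, mast cell and basophil, and erythroid lists moved with those of the 44 genes. The summed reads of the HSC list moved the other way. The part of these lists in that difference was not tested. In bulk libraries fewer cells of a type and less RNA per cell cannot be told apart.

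**Figure D1:**
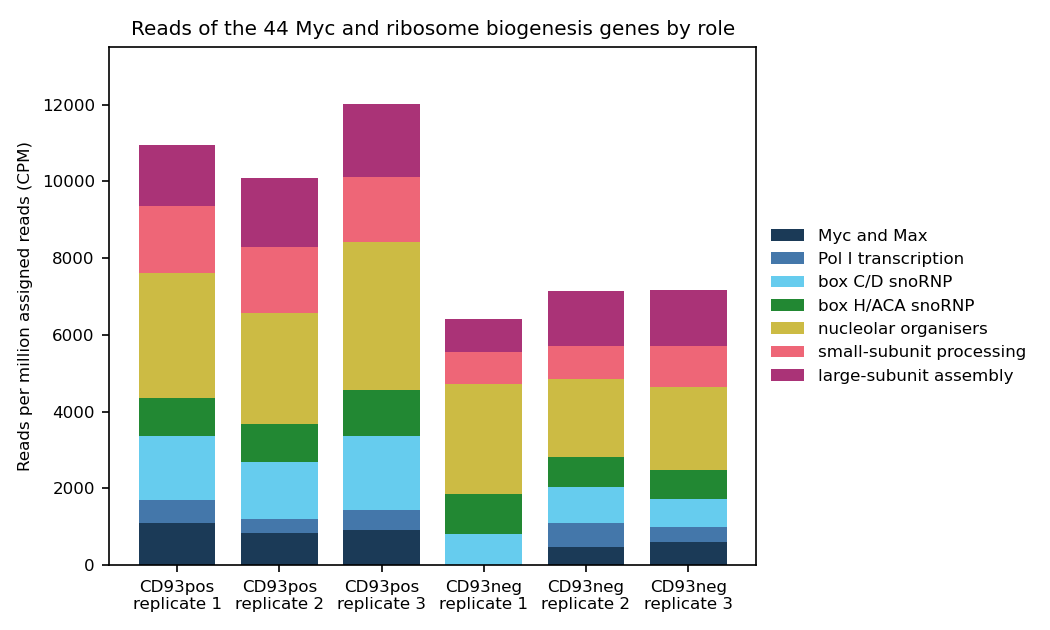
Stacked bars give the reads of the 44 genes in CPM (vertical axis) in each of the 6 libraries, divided by role. The CD93pos bars reach 10954, 10075 and 12004 CPM, all above the 6422, 7134 and 7155 CPM of the CD93neg bars, and in CD93neg replicate 1 the Myc and Max and Pol I parts are too small to see.

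By role, the ratio of means was 2.61 for Myc with Max, 2.04 for the box C/D snoRNP proteins and 1.87 for the small-subunit factors. Without CD93neg replicate 1 these ratios were 1.74, 2.03 and 1.78. The 3 box C/D proteins took 1698 ± 239.7 CPM in CD93pos against 831 ± 115 CPM in CD93neg (SD, n = 3 per group), and the 13 small-subunit factors took 1720 ± 12.3 CPM in CD93pos against 919.8 ± 133 CPM in CD93neg (SD, n = 3 per group). Both showed no overlap between the groups, as did Myc with Max and the 11 large-subunit factors. The 11 large-subunit factors took 1760 ± 141 CPM in CD93pos against 1245 ± 325 CPM in CD93neg (SD, n = 3 per group). Their ratio of 1.41 became 1.23 without CD93neg replicate 1. In that library Bop1 gave 792 of the 870 CPM of the 11 large-subunit factors. Nob1 and Utp4 gave 527 and 303 of the 830 CPM of the 13 small-subunit factors there. The nucleolar organisers took 3332 ± 482 CPM in CD93pos against 2364 ± 453 CPM in CD93neg (SD, n = 3 per group), and the box H/ACA proteins 1063 ± 118 CPM in CD93pos against 849 ± 148 CPM in CD93neg (SD, n = 3 per group), both with overlap, since CD93neg replicate 1 reached the CD93pos range. The 5 genes of RNA polymerase I transcription took 488 ± 112 CPM in CD93pos against 331 ± 305 CPM in CD93neg (SD, n = 3 per group), and without CD93neg replicate 1 their ratio was 0.985.

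The 44 genes were unevenly read in CD93neg replicate 1. All 44 were read in each CD93pos library, and 16, 38 and 43 in CD93neg replicates 1, 2 and 3. In all 6 libraries 15 of the 44 were read, against a background of 22.9%. The 28 genes without a read in CD93neg replicate 1 were 63.6% of the list, against a background of 71.0% of all tested genes. Their mean level in CD93pos ran from 22.0 CPM for Rrp12 to 313 CPM for Wdr43, while 3 reads, the limit that a count of 0 allows, would be 1.06 CPM in that library. Reads in that library were concentrated in few genes. Ncl, Dkc1 and Bop1 gave 61.3% of its reads of the list, and 7 genes sufficed for 90% of these reads, against 28 to 30 genes in the CD93pos libraries and 27 each in CD93neg replicates 2 and 3. Only 12 of the 44 genes had over 2 reads there, and 5 of these, Dkc1, Ncl, Utp4, Nob1 and Bop1, had their highest normalized count of all 6 libraries in it.

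**Figure D2:**
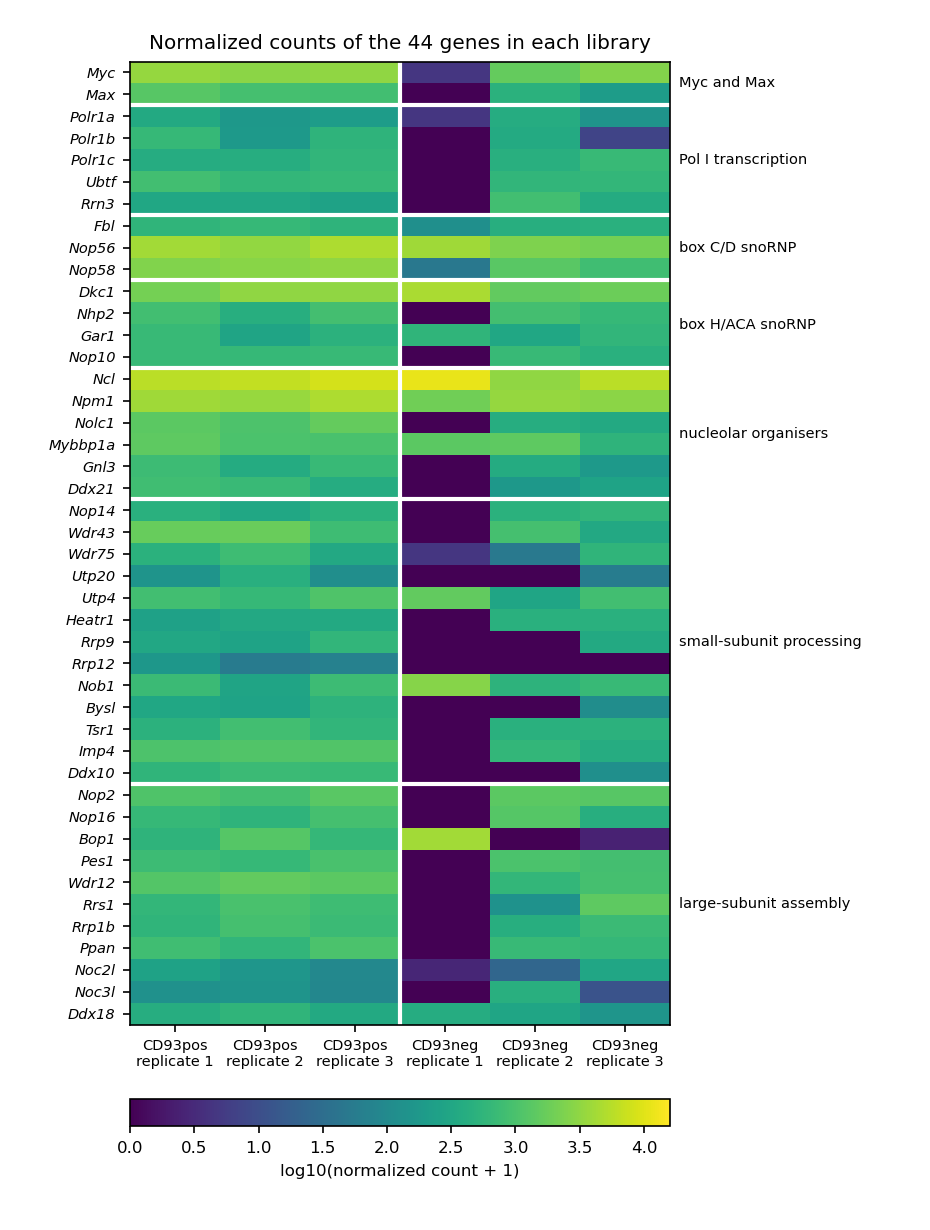
The map gives log10(normalized count + 1) by colour for each of the 44 genes (rows, grouped by role) in each library (columns, CD93pos left of the white line). The darkest cells are at 0, and they fill most of CD93neg replicate 1, where Ncl, Dkc1, Nob1 and Bop1 are bright.

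Gene by gene, none of the 44 passed the limma test. limma, on log2(normalized count + 1) with Benjamini-Hochberg adjustment over all 11805 tested genes and a threshold of 0.05, called 0 of the 44 higher and 0 lower, where the background was 0.0% in either direction. At an unadjusted p under 0.05, 5 were higher and 0 lower, against backgrounds of 11.8% higher and 0.381% lower. These were Nop58, Utp20, Rrp12, Bysl and Ddx10. edgeR's quasi-likelihood test also called 0 of the 44 (background 0.0%), with 1 of the 44 higher and 0 of them lower by unadjusted p under 0.05 (backgrounds 9.04% and 1.51%). Without CD93neg replicate 1, limma again called 0 of the 44, against backgrounds of 0.0% higher and 0.00847% lower. With no adjustment, 11 were then higher and 0 lower at a p under 0.05 (backgrounds 12.5% and 4.4%). DESeq2 called 1 of the 44 higher, Rrp12, and 0 lower, against a background of 5.58% higher and 0.389% lower, with 42 of the 44 given an adjusted p. Without CD93neg replicate 1, DESeq2 called Nop58, Nolc1, Rrp12 and Bop1 higher, against a background of 8.48%. Without CD93neg replicate 2 it called Polr1b and Rrp12 higher (background 8.07%), and without CD93neg replicate 3 it called Utp20, Rrp9, Rrp12, Bysl and Ddx10 higher (background 17.9%). A log2 fold change here is the mean of log2(normalized count + 1) over CD93pos libraries minus that over CD93neg libraries, not the ratio of mean counts. Most were positive, as for most tested genes. Of the 44, 42 had a positive log2 fold change, against a background of 79.9%. The median was 3.22 over the 44 and 2.36 over all tested genes. Without CD93neg replicate 1 the medians were 0.73 over the 44 and 0.43 over all tested genes, and 34 of the 44 were positive (background 60.1%). Quantile normalization is meant to give every library the same distribution, but genes tied at 0 in a library all get the same value. In CD93neg replicate 1 these were 71.0% of all tested genes, so that library was not fully matched to the others. Quantile normalization moved the median of all tested genes to 0.022 and that of the 44 to 1.66. With it, 39 of the 44 and 50.5% of all tested genes were positive. The 44 also had higher counts. Their median normalized counts were 677, 651 and 684 in CD93pos replicates 1, 2 and 3, against 164, 161 and 139 over all tested genes. For a gene at 0 in CD93neg replicate 1 and level in the other libraries, the log2 fold change rises with its count. The part of this in the medians was not tested.

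Counts without overlap give a second view. In 13 of the 44 genes, 29.5%, every CD93pos library had a higher normalized count than every CD93neg library, against a background of 18.3%. In none was every CD93pos library lower, against 1.92%. The 13 genes were Myc, Max, Fbl, Nop58, Npm1, Nolc1, Ddx21, Utp20, Rrp12, Bysl, Imp4, Ddx10 and Wdr12. Without CD93neg replicate 1 there were 17 such genes (background 21.8%), and Rrn3 and Heatr1 were lower in every CD93pos library (background 13.8%). The mean normalized count was higher in CD93pos for 39 of the 44 genes (background 58.6%), or 32 without CD93neg replicate 1 (background 52.3%). The ratio of the group means had a median of 1.58 over the 43 genes read in CD93neg, against 1.15 over the 11017 tested genes read there. Without CD93neg replicate 1 these medians were 1.33 and 0.959.

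**Figure D3:**
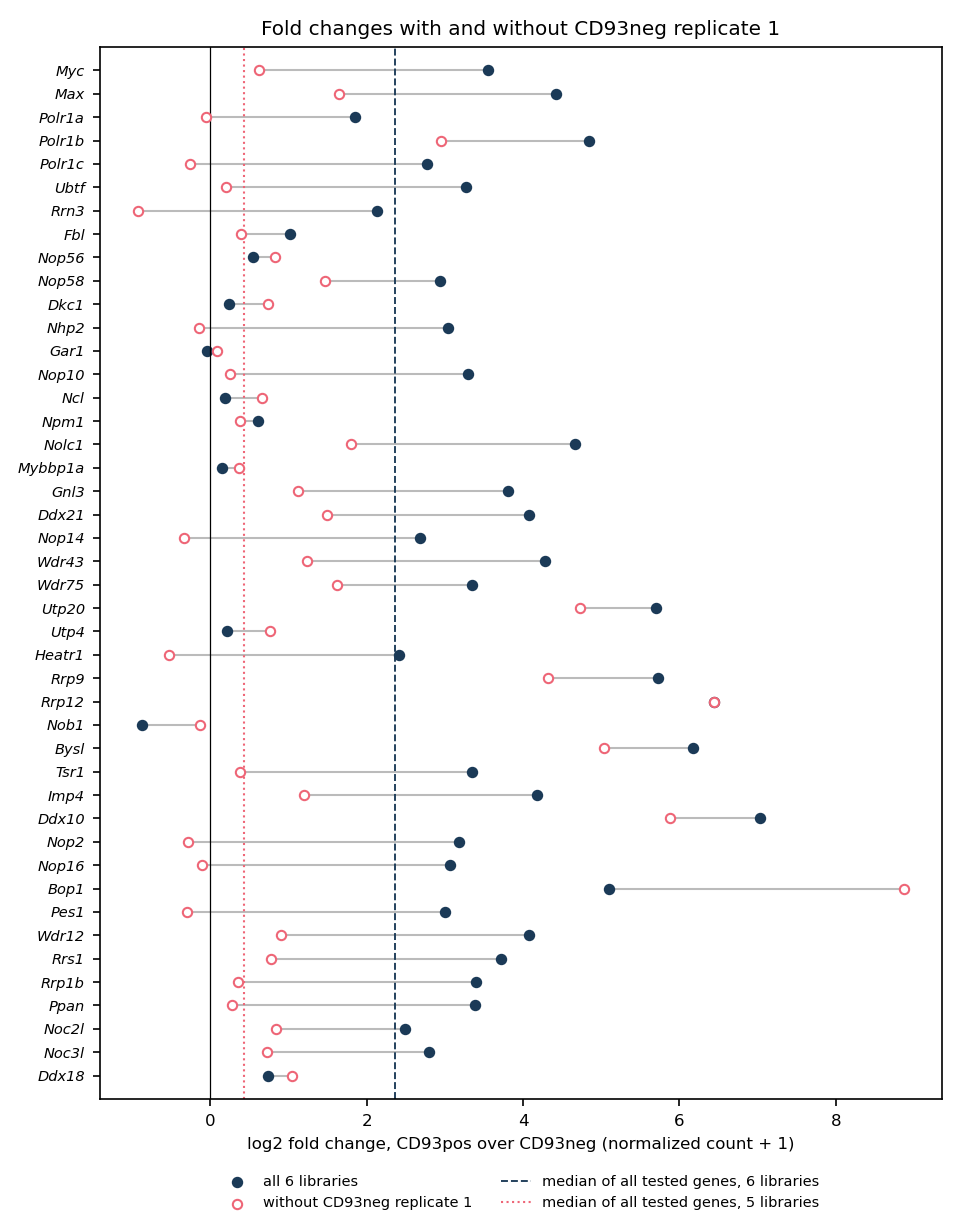
Each line is 1 of the 44 genes, with its log2 fold change of CD93pos over CD93neg (horizontal axis, normalized count + 1) from all 6 libraries (filled) and without CD93neg replicate 1 (open). Dashed and dotted lines mark the medians of all tested genes, 2.36 and 0.43, and most open points lie well left of their filled ones except for Rrp12, which does not move, and genes such as Bop1, Ncl and Dkc1, which move right.

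Myc and Max had higher counts in every CD93pos library than in any CD93neg library. Myc (ENSMUSG00000022346.14, GRCm38 chromosome 15, 61985391 to 61990374) had normalized counts of 3493, 2936 and 3175 in CD93pos replicates 1, 2 and 3, against 3.63, 1629 and 2659 in CD93neg replicates 1, 2 and 3. The CD93pos libraries lay close together, CD93neg replicate 3 came nearest to them, and CD93neg replicate 1 held 2 reads. Its means were 3201 ± 279.8 in CD93pos against 1430 ± 1339 in CD93neg (SD, n = 3 per group), beside a log2 fold change of 3.56 (SE 2.19, adjusted p = 0.536, limma), or 0.62 without CD93neg replicate 1. Max (ENSMUSG00000059436.12, GRCm38 chromosome 12, 76937269 to 76962201), the obligate partner of Myc whose promoter is shown above, had 1296, 897 and 854 in the CD93pos libraries, against 0, 481 and 209 in the CD93neg libraries. All 3 CD93pos libraries lay above the 3 CD93neg libraries. Its means were 1016 ± 243 in CD93pos against 230.3 ± 241 in CD93neg (SD, n = 3 per group), and its log2 fold change was 4.42 (SE 2.54, adjusted p = 0.507, limma), or 1.65 without CD93neg replicate 1. Neither difference exceeded the spread between replicates by this test.

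Genes of RNA polymerase I transcription, the first step of the pathway, showed no common pattern. Ubtf, which keeps ribosomal DNA open for transcription, had normalized counts of 833, 599.8 and 642 in CD93pos replicates 1, 2 and 3, against 0, 577 and 614 in CD93neg replicates 1, 2 and 3. CD93neg replicates 2 and 3 lay at the level of the lower CD93pos libraries, while CD93neg replicate 1 held none. The log2 fold change was 3.27 (SE 2.69, adjusted p = 0.616, limma), or 0.20 without CD93neg replicate 1. Polr1b, which encodes a large core subunit of the polymerase, had 657, 178 and 544 in the CD93pos libraries, against 0, 370.1 and 6.25 in the CD93neg libraries. Its groups overlapped, and the counts varied within each group. The log2 fold change was 4.85 (SE 2.50, adjusted p = 0.466, limma), or 2.95 without CD93neg replicate 1. Rrn3, which brings the polymerase to its promoter and has 2 E-boxes in the window shown, had 319, 327 and 263 in the CD93pos libraries, against 0, 855 and 386 in the CD93neg libraries. CD93neg replicates 2 and 3 lay above every CD93pos library, and its log2 fold change of 2.13 (SE 2.78, adjusted p = 0.692, limma) became -0.93 without CD93neg replicate 1 and -0.50 with quantile normalization. Polr1a, the largest subunit, and Polr1c, a subunit shared with RNA polymerase III, had log2 fold changes of 1.85 and 2.77 with all libraries and of -0.053 and -0.26 without that library.

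The box C/D snoRNP proteins, which carry the methylation of ribosomal RNA, were read in all 6 libraries. Nop58 (ENSMUSG00000026020.9, GRCm38 chromosome 1, 59684971 to 59719044), a scaffold protein of these particles, had normalized counts of 2571, 2866 and 3187 in CD93pos replicates 1, 2 and 3, against 47.2, 1319 and 816 in CD93neg replicates 1, 2 and 3. Every CD93pos library held more than any CD93neg library, and the lowest was CD93neg replicate 1. Its means were 2875 ± 308 in CD93pos against 727 ± 640.3 in CD93neg (SD, n = 3 per group), beside a log2 fold change of 2.94 (SE 1.24, adjusted p = 0.394, limma), or 1.46 without CD93neg replicate 1 (adjusted p = 0.109, limma). Nop56 (ENSMUSG00000027405.16, GRCm38 chromosome 2, 130274430 to 130279313), its paired scaffold protein, had 4106, 3257 and 4860 in the CD93pos libraries, against 4034, 2426 and 2119 in the CD93neg libraries. CD93neg replicate 1 lay at the level of the CD93pos libraries, while CD93neg replicates 2 and 3 lay below all of them. Its log2 fold change was 0.55 (SE 0.31, adjusted p = 0.502, limma), or 0.83 without CD93neg replicate 1. Fbl, the methyltransferase fibrillarin, averaged 588 ± 56.0 in CD93pos against 338 ± 187 in CD93neg (SD, n = 3 per group) without overlap.

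The box H/ACA proteins, which convert uridine to pseudouridine in ribosomal RNA, had groups that overlapped in each of the 4 genes with all libraries. Dkc1 (ENSMUSG00000031403.14, GRCm38 chromosome X, 75095854 to 75109777), the pseudouridine synthase dyskerin, had normalized counts of 2081, 3239 and 3216 in CD93pos replicates 1, 2 and 3, against 4676, 1531 and 1830 in CD93neg replicates 1, 2 and 3. Its highest and its lowest values were both in CD93neg libraries. The means were 2845 ± 662 in CD93pos against 2679 ± 1736 in CD93neg (SD, n = 3 per group), beside a log2 fold change of 0.24 (SE 0.47, adjusted p = 0.789, limma). Its groups did not overlap without CD93neg replicate 1, where the ratio of means was 1.69 in place of 1.06, and the log2 fold change was 0.74. Nhp2, an RNA-binding partner of dyskerin, had 852, 426 and 874 in the CD93pos libraries, against 0, 869.6 and 652 in the CD93neg libraries. Its groups overlapped, and its log2 fold change of 3.04 (SE 2.74, adjusted p = 0.623, limma) became -0.14 without CD93neg replicate 1. Nop10, a small protein of the same particle, had 665, 662 and 682 in the CD93pos libraries, against 0, 682 and 466 in the CD93neg libraries. The CD93pos libraries were nearly level, CD93neg replicate 2 reached them, and the log2 fold change of 3.30 (SE 2.69, adjusted p = 0.614, limma) became 0.25 without CD93neg replicate 1. In that library Dkc1 and Gar1 were read, with 2576 and 313 reads, but not Nhp2 or Nop10. Gar1, the last protein of the particle, averaged 492 ± 203 in CD93pos against 492 ± 148 in CD93neg (SD, n = 3 per group).

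The nucleolar organisers held the most reads. Ncl (ENSMUSG00000026234.12, GRCm38 chromosome 1, 86344719 to 86359400), which encodes nucleolin, an abundant RNA-binding protein of the nucleolus, had normalized counts of 5849, 6439 and 8432 in CD93pos replicates 1, 2 and 3, against 11491, 3182 and 5858 in CD93neg replicates 1, 2 and 3. CD93neg replicate 1 was the highest and CD93neg replicate 2 the lowest of all 6. The means were 6906 ± 1354 in CD93pos against 6844 ± 4241 in CD93neg (SD, n = 3 per group), beside a log2 fold change of 0.19 (SE 0.41, adjusted p = 0.809, limma), or 0.66 without CD93neg replicate 1. Npm1 (ENSMUSG00000057113.13, GRCm38 chromosome 11, 33152287 to 33163206), nucleophosmin, a chaperone of ribosome assembly, had 3982, 3590 and 4847 in the CD93pos libraries, against 1930, 3421 and 2923 in the CD93neg libraries. The groups did not overlap, although CD93neg replicate 2 lay close to the lowest CD93pos library. Its means were 4140 ± 643 in CD93pos against 2758 ± 759 in CD93neg (SD, n = 3 per group), beside a log2 fold change of 0.61 (SE 0.29, adjusted p = 0.442, limma), or 0.38 without CD93neg replicate 1. Processed copies of Npm1 exist in the genome and may share its reads. Nolc1 (ENSMUSG00000015176.9, GRCm38 chromosome 19, 46075863 to 46085530), a chaperone of snoRNPs, had 1364, 1075 and 1588 in the CD93pos libraries, against 0, 409 and 352 in the CD93neg libraries. All CD93pos libraries lay well above the CD93neg libraries, also above CD93neg replicates 2 and 3, which were close to each other. Its means were 1342 ± 257 in CD93pos against 254 ± 221 in CD93neg (SD, n = 3 per group), beside a log2 fold change of 4.66 (SE 2.51, adjusted p = 0.479, limma), or 1.80 without CD93neg replicate 1 (adjusted p = 0.109, limma). Gnl3, the GTPase nucleostemin, had 768, 379.6 and 666 in the CD93pos libraries, against 0, 386 and 183 in the CD93neg libraries. CD93neg replicate 2 slightly exceeded CD93pos replicate 2, so the groups overlapped, and the log2 fold change was 3.81 (SE 2.58, adjusted p = 0.571, limma), or 1.12 without CD93neg replicate 1. Of the others, Ddx21, an RNA helicase, averaged 641 ± 224 in CD93pos against 148 ± 137 in CD93neg (SD, n = 3 per group) without overlap, and Mybbp1a averaged 1155 ± 249.9 in CD93pos against 1126 ± 503 in CD93neg (SD, n = 3 per group) with overlap.

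With all libraries, the 4 genes with the lowest mean counts in CD93neg were the small-subunit factors Rrp12, Utp20, Bysl and Ddx10. The large-subunit factor Bop1 averaged 0.781 in CD93neg when CD93neg replicate 1 was left out, below Utp20, Bysl and Ddx10. Rrp12 (ENSMUSG00000035049.3, GRCm38 chromosome 19, 41862851 to 41896173), known from yeast for the maturation and export of pre-ribosomes, had 363, 70 and 113 reads in CD93pos replicates 1, 2 and 3, against 0 reads in each CD93neg library. No other of the 44 genes was read in each CD93pos library yet in none of the CD93neg ones, against a background of 4.6% of all tested genes. A floor of 3 reads over the whole CD93neg group covers counting error only, not a gene missed as a whole by a sparse library. With this floor, Rrp12 was at least 84.7-fold higher in CD93pos. The bound was 49.2-fold without CD93pos replicate 1 and 47.3-fold without CD93neg replicate 2. The adjusted p of limma was 0.0558, but 0.0495 with a pseudocount of 0.5 and 0.0196 without CD93pos replicate 2, where limma called 1.73% and 6.56% of all tested genes higher. Over all alternatives of limma and edgeR it lay between 0.0131 and 0.415. In the authors' deposited table its log2 fold change was 8.57 with an adjusted p of 0.00781, the only one of the 44 genes under 0.05 there. Rerun here on the recovered reads, DESeq2 lost this call when any 1 CD93pos library was left out, with adjusted p between 0.0544 and 0.115, where it called 1.14%, 1.24% and 0.938% of all genes higher without CD93pos replicates 1, 2 and 3. Ddx10 (ENSMUSG00000053289.7, GRCm38 chromosome 9, 53098635 to 53248053), an RNA helicase, had normalized counts of 562, 728 and 685 in the CD93pos libraries, against 0, 0 and 123 in the CD93neg libraries. Only CD93neg replicate 3 held any, well below each CD93pos library. Its means were 658 ± 86.3 in CD93pos against 41.2 ± 71.3 in CD93neg (SD, n = 3 per group), beside a log2 fold change of 7.04 (SE 2.32, adjusted p = 0.223, limma), or 5.88 without CD93neg replicate 1. Utp20 and Bysl, factors of early and late small-subunit assembly, showed the same layout, with counts in CD93neg replicate 3 alone, and averaged 237 ± 178 in CD93pos against 18.8 ± 32.5 in CD93neg (SD, n = 3 per group) for Utp20 and 367 ± 129.5 in CD93pos against 38.6 ± 66.8 in CD93neg (SD, n = 3 per group) for Bysl. Exons of Bysl and of Ccnd3 on the other strand share 361 bases, so their reads may be mixed. Without CD93neg replicate 3, limma called 5 of the 44 genes higher (Utp20, Rrp9, Rrp12, Bysl and Ddx10), against a background of 15.9% of all tested genes.

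Wdr43 and Heatr1, which act early on the small-subunit precursor, had groups that overlapped. Wdr43 (ENSMUSG00000041057.9, GRCm38 chromosome 17, 71615895 to 71659031), a subunit of the early processing complex whose promoter is shown above, had normalized counts of 1659, 1746 and 782 in CD93pos replicates 1, 2 and 3, against 0, 927 and 336 in CD93neg replicates 1, 2 and 3. CD93neg replicate 2 lay above CD93pos replicate 3, so the groups overlapped. Its log2 fold change was 4.28 (SE 2.61, adjusted p = 0.530, limma), or 1.23 without CD93neg replicate 1. Heatr1, which links this complex to transcription of the precursor, had 256, 339.9 and 361 in the CD93pos libraries, against 0, 458 and 458 in the CD93neg libraries. CD93neg replicates 2 and 3 lay above every CD93pos library, and the log2 fold change of 2.41 (SE 2.72, adjusted p = 0.659, limma) became -0.53 without CD93neg replicate 1. Nob1, the nuclease that makes the final cut of the small-subunit RNA, had the lowest log2 fold change of the 44 with all libraries, -0.87, and 1492 reads in CD93neg replicate 1. Without that library it was -0.14, and Rrn3 was the lowest. Imp4, which holds the U3 snoRNP on the precursor, averaged 1120 ± 47.7 in CD93pos against 332 ± 304 in CD93neg (SD, n = 3 per group) without overlap. Over the 13 genes the median log2 fold change was 4.17, or 1.23 without CD93neg replicate 1, against 0.43 over all tested genes in that comparison.

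Among the 11 factors of the large subunit, Bop1, Pes1 and Wdr12 form the PeBoW complex, which matures the large-subunit RNA, but their counts did not move together. Wdr12 (ENSMUSG00000026019.15, GRCm38 chromosome 1, 60069785 to 60098645) had normalized counts of 1204, 1561 and 1409 in CD93pos replicates 1, 2 and 3, against 0, 597 and 924 in CD93neg replicates 1, 2 and 3. Every CD93pos library lay above every CD93neg library. Its means were 1391 ± 179 in CD93pos against 507 ± 468 in CD93neg (SD, n = 3 per group), beside a log2 fold change of 4.08 (SE 2.62, adjusted p = 0.549, limma), or 0.90 without CD93neg replicate 1. Bop1 (ENSMUSG00000022557.10, GRCm38 chromosome 15, 76452989 to 76477277) showed 1167, 1556 and 1032 reads in the CD93pos libraries, against 2243, 0 and 1 in the CD93neg libraries. CD93neg replicate 1 was the highest of all 6, whereas CD93neg replicates 2 and 3 held almost none. The means were 801 ± 378 in CD93pos against 1358 ± 2350 in CD93neg (SD, n = 3 per group), with CD93neg the higher. The log2 fold change was nonetheless positive at 5.10 (SE 3.21, adjusted p = 0.544, limma), since it averages log2 values, but -0.76 in DESeq2. In limma it was 8.87 without CD93neg replicate 1. Pes1 averaged 788 ± 174 in CD93pos against 636 ± 557 in CD93neg (SD, n = 3 per group), beside a log2 fold change of 3.00, or -0.29 without CD93neg replicate 1. Noc2l, known from yeast for the assembly and transport of the large subunit, had 258, 160.1 and 91.7 in the CD93pos libraries, against 1.82, 23.8 and 309 in the CD93neg libraries. CD93neg replicate 3 was the highest library, and the log2 fold change was 2.49 (SE 2.21, adjusted p = 0.623, limma), or 0.84 without CD93neg replicate 1 and -0.43 with quantile normalization. Of the exons of Noc2l, 20.9% overlap Samd11 on the other strand, so its reads may be mixed. Over the 11 genes the median log2 fold change was 3.17, or 0.73 without CD93neg replicate 1.

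**Figure D4:**
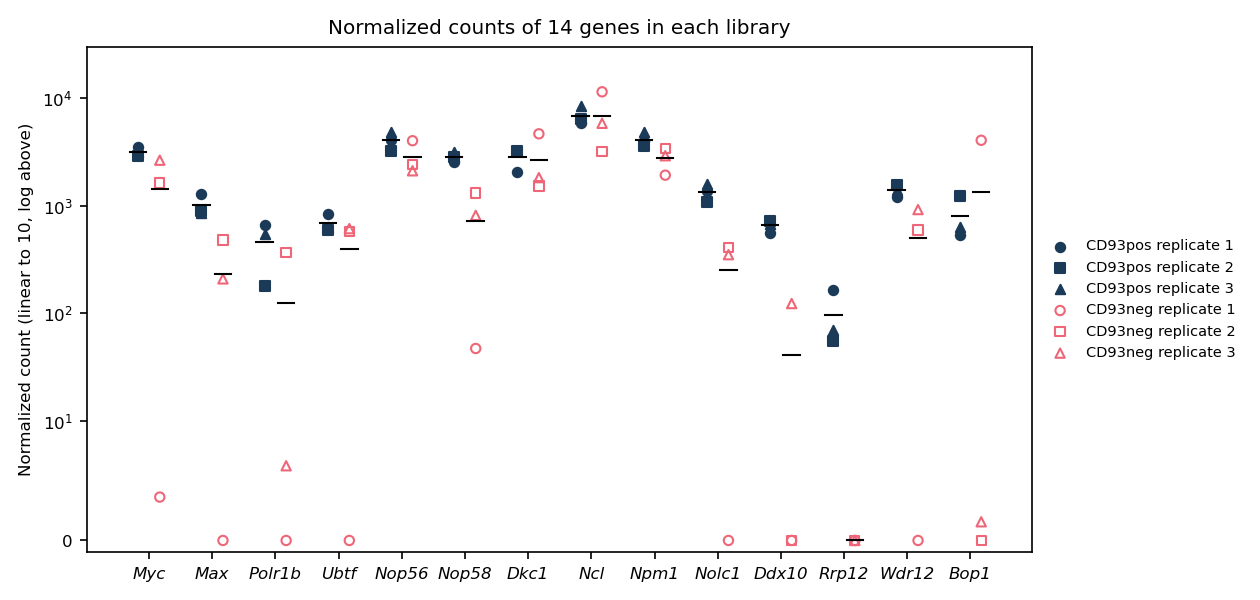
Points give the normalized count (vertical axis, linear to 10 and logarithmic above) of 14 genes in each library, CD93pos filled at left and CD93neg open at right of each pair, with bars at the group means of 3 libraries. Nop58, Nolc1 and Wdr12 have all CD93pos points above all CD93neg points, Rrp12 has all CD93neg points at 0, and Bop1 has its highest point in CD93neg replicate 1.

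Per kb of annotated exon, a scale that allows for the annotated length of each gene, Npm1, Myc and Nop56 were the highest in CD93pos. Npm1 had 1553 ± 241 normalized counts per kb in CD93pos and 1035 ± 285 in CD93neg (SD, n = 3 per group). Myc had 1178 ± 103 per kb in CD93pos and 526 ± 493 in CD93neg, and ranked 2 of 44 in CD93pos and 5 in CD93neg. In CD93neg replicates 2 and 3 alone, without the library with 2 reads of Myc, it had 789 per kb and ranked 2 there too, below Npm1 at 1190. Nop56 had 994 ± 196 in CD93pos and 698 ± 251 in CD93neg on this scale. Neighbours such as Myc and Nop56, or Dkc1 and Ncl (690.4 ± 161 and 678 ± 133 in CD93pos), did not differ beyond their spread. The lowest 3 in CD93pos were Utp20, Rrp12 and Polr1a, at 23.2 ± 17.5, 22.3 ± 13.9 and 20.6 ± 8.16. Lengths count every annotated exon, which lowers the value of genes with long, rarely used exons, so the ranks depend on them. Ncl had the highest mean normalized count of the 44 in CD93pos, but 10188 annotated exon bases, against 2665 for Npm1.

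Other genes of the same pathway, outside the 44, also lay higher in CD93pos by their summed reads. Of 82 other ribosome biogenesis genes listed, 81 were found and tested. limma called 0 higher and 0 lower, an unadjusted p under 0.05 was found for 11 higher and 0 lower genes of the 81 (backgrounds 11.8% and 0.381%), and DESeq2 called 2 of them higher, Surf6 and Dhx37 (background 5.58%). Their reads amounted to 8779, 8159 and 9100 CPM in the CD93pos libraries, against 4088, 6521 and 6620 CPM in the CD93neg libraries, again without overlap. Their median log2 fold change was 3.19 with all libraries and 0.42 without CD93neg replicate 1, beside 2.36 and 0.43 over all tested genes. Surf6, a nucleolar protein, had 615, 101 and 602 reads in the CD93pos libraries, against 0, 0 and 0 in the CD93neg libraries. By the same floor as for Rrp12, which covers counting error only, it was at least 204-fold higher in CD93pos (limma adjusted p = 0.0558). The bound was 114-fold without CD93neg replicate 2. Dhx37, a helicase of small-subunit assembly, had 172, 66 and 89 reads in the CD93pos libraries, against 1, 0 and 0 in the CD93neg libraries (limma adjusted p = 0.0775), and Nol10 had 223, 258 and 197 reads in the CD93pos libraries, against 0, 0 and 12 in the CD93neg libraries (limma adjusted p = 0.154). The 3 with the smallest p among those with a negative log2 fold change were Sdad1, Urb2 and Sbds, with -1.52, -2.46 and -0.69, or -0.81, -0.79 and -0.32 without CD93neg replicate 1. Sbds, the gene of Shwachman-Diamond syndrome, which readies the large subunit for translation, had 1829, 1436 and 1383 reads in the CD93pos libraries, against 1384, 1039 and 872 in the CD93neg libraries, and its groups overlapped in normalized counts.

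The wider Myc network, its relatives, rivals for Max and regulators, was mixed. Of 16 genes, 15 were tested, 9 with a positive and 6 with a negative log2 fold change, and limma called 0 (unadjusted p under 0.05: 3 higher, 0 lower, backgrounds 11.8% and 0.381%), while DESeq2 called 2 higher (background 5.58%). Mxd3, which competes with Myc for Max, had 175, 63 and 198 reads in the CD93pos libraries, against 0, 0 and 0 in the CD93neg libraries. By the same floor, for counting error only, it was at least 67.6-fold higher in CD93pos (limma adjusted p = 0.0558). The bound was 37.8-fold without CD93neg replicate 2. Cip2a, listed under the name C330027C09Rik, an inhibitor of a phosphatase and known to stabilise Myc, had 268, 310 and 89 reads in the CD93pos libraries, against 0, 1 and 0 in the CD93neg libraries (limma adjusted p = 0.0576). Mxd3 and Cip2a were the genes that DESeq2 called. Mxd4, another Max partner, had 348, 511 and 154 reads in the CD93pos libraries, against 0, 0 and 76 in the CD93neg libraries (limma adjusted p = 0.394). Mycn, the relative of Myc that can act in its place, had 2845, 2101 and 1713 reads in the CD93pos libraries, against 3248, 2251 and 757 in the CD93neg libraries. By normalized count it averaged 1340 ± 307 in CD93pos against 3074 ± 2491 in CD93neg (SD, n = 3 per group), beside a log2 fold change of -0.90 (SE 0.63, adjusted p = 0.586, limma), or -0.27 without CD93neg replicate 1. CD93neg replicate 1, which held 2 reads of Myc, held 3248 of Mycn. Trrap, a cofactor that Myc recruits, and Mlxip had log2 fold changes of -2.20 and -1.47, or -0.92 and -1.44 without CD93neg replicate 1.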

How the data were processed

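Per the submitters' processing notes, reads were processed with STAR, featureCounts (Subread 1.5.0-p1) and DESeq2 1.26 on GRCm38 (mm10). Strand setting and annotation release were not given in the sources used here. The authors deposited normalized counts (a signal, gene counts divided by 1 size factor per library) and a results table with log2 fold changes and their errors, a Wald score and p-values. Whole reads were recovered from the deposited normalized counts: 100.0% of values came out whole within 0.001. No deposited column was left unused among those with per-library values (0 columns).

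Genes whose normalized counts averaged 10 or more were tested with limma 3.58.1 (R 4.3.3) on log2(normalized count + 1), CD93pos over CD93neg, with Benjamini-Hochberg adjustment over all tested genes and a threshold of 0.05. Since the values are counts divided by size factors, edgeR 4.0.16 and DESeq2 1.42.0 on the recovered reads were alternatives. The limma and edgeR fits were tested on simulated data, and the DESeq2 fit was not. No simulated library lacked most genes, as CD93neg replicate 1 does. Fold changes of low genes are understated by the pseudocount. Assigned reads ranged from 2832653 to 9509304 per library, and a floor of 3 reads covers counting error only.

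The 44 genes and the other lists were chosen with earlier results of these data known. Values in every library are given for Myc, Max, and in each role for the 2 genes with the smallest p, the gene with the most reads and the gene with the fold change nearest the median of all genes. Of the other lists, the 3 genes with the smallest p in each direction are named. Other genes were named after their values were seen. Riok2 is not used here. Some marker genes of other cell types are counted in their lists but not reported singly here. Positions, exon lengths and small nucleolar RNAs came from GENCODE M21. Alternatives varied the pseudocount, the filter, the scaling, the test and a replicate block, and left out each library.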

Additional observations from a re-analysis of the deposited data

How the results depend on the processing

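The ratio of summed reads stayed above 1 under every alternative run, between 1.52 and 1.66 with any 1 library left out and at 1.72 without Ncl. The value with CD93neg replicate 1 alone was chosen after seeing the data. By normalized count the 44 genes summed to 47619, 46261 and 52839 in CD93pos replicates 1, 2 and 3. In CD93neg replicates 1, 2 and 3 they summed to 33021, 31320 and 33583. The ratio of these means was smaller than with any 1 library left out. Counts of calls depended on the test and on single libraries. Over all genes limma called 206 with a pseudocount of 0.5, DESeq2 called 705, and limma with a replicate block called 24. Of the 44, 1 (Rrp12) was called with a pseudocount of 0.5 and 1 (Rrp12) by DESeq2, and DESeq2 called 4 of the other pathway genes. With 1 library left out, calls ranged from 0 to 1880 genes in limma and from 220 to 2446 in DESeq2, from 0 to 5 of the 44 higher in each, and from 0 to 17 of the other pathway genes in limma. Without CD93pos replicate 2 limma called Rrp12 and 774 genes in all. The median log2 fold change of the 44 ranged from 0.73 to 4.72 in limma. The cause of these shifts was not tested.

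Of 21 genes given in every library, 14 kept the sign of their log2 fold change under all alternatives run. Rrn3 was -0.50 with quantile normalization, -0.36 in edgeR and -0.45 in DESeq2, Bop1 was -0.24 in edgeR and -0.76 in DESeq2, and Noc2l was -0.43 with quantile normalization. With 1 library left out, the log2 fold change ranged from -0.93 to 3.94 in limma and -1.01 to 0.65 in DESeq2 for Rrn3, from -0.14 to 4.74 in limma and -0.058 to 1.14 in DESeq2 for Nhp2, from -0.069 to 0.74 in limma and -0.15 to 0.78 in DESeq2 for Dkc1, from -0.27 to 0.66 in limma and -0.29 to 0.63 in DESeq2 for Ncl, from -0.53 to 3.89 in limma and -0.50 to 0.48 in DESeq2 for Heatr1 and from 2.87 to 8.87 in limma and -1.29 to 10.36 in DESeq2 for Bop1.

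The labels do not pair the libraries. Deviations of same-numbered libraries from their group means correlated at 0.037, 0.019 and 0.061, too weakly to pair them, although each library correlated best with its own number, a hint from the data only. The replicate block called 0 of the 44 and changed no call among the genes named. Depth limits genes with few reads. CD93neg replicate 1 had nearly the depth of CD93neg replicate 3, with 2832653 and 3003095 assigned reads, but 16 and 43 of the 44 genes were read in them.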

Other observations

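No library of either group held the highest value of most of the 44 genes. By normalized count, 9, 10 and 9 of them were highest in CD93pos replicates 1, 2 and 3, against 5, 6 and 5 in CD93neg replicates 1, 2 and 3. Of all 11805 tested genes, 1255, 2310 and 1441 were highest in CD93pos replicates 1, 2 and 3, against 1530, 2663 and 2606 in CD93neg replicates 1, 2 and 3.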
